A study of Mus musculus with 27 samples.

Results

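The 4 TCF/LEF factors (Tcf7, Tcf7l1, Tcf7l2 and Lef1) and the 4 full-length Tle corepressors (Tle1, Tle2, Tle3 and Tle4) were followed in mouse mammary tumour cell lines given Wnt3a or TGFb. The members were taken by gene name, and their 8 rows are among 24454 genes of the expression table. RNA was sequenced from 9 lines under 3 conditions, which gave 27 libraries and 12 groups. All lines came from thoracic mammary tumours of 12-week-old MMTV-PyMT females on the FVB/N background, in which a mammary promoter drives the polyoma middle T oncogene. They carried mutant alleles of Bcl9 and Bcl9L, the coactivators that link β-catenin to Pygopus. In dHD1 alleles the domain that binds Pygopus was deleted, and in dHD2 alleles the domain that binds β-catenin. The genotypes were dHD1/fl (2 lines) and dHD2/fl (2 lines), which still held a floxed allele, and dHD1/- (2 lines) and dHD2/- (3 lines), in which adenoviral Cre had removed it and cells had been sorted for GFP. No line was wild type for Bcl9 and Bcl9L, and the fl lines are the nearest to a control. Each line was left without cytokine for 4 days, given Wnt3a at 100 ng/ml for 3 days or given TGFb at 2 ng/ml for 4 days.

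TCF/LEF factors bind DNA at Wnt target genes through a high mobility group box. Without nuclear β-catenin they hold a Tle (Groucho) tetramer that silences the target, and β-catenin displaces the corepressor and brings in coactivators such as Bcl9 and Pygopus. Tcf7 (TCF1) and Lef1 are also known as Wnt target genes themselves and as T cell factors, Tcf7l1 (TCF3) acts mainly as a repressor, and Tcf7l2 (TCF4) is the common factor of gut epithelium. Tle proteins serve other DNA-binding factors as well, among them Runx and Hes proteins.

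The libraries held 21.9 to 33.7 M counted reads, so that 3 reads, used here as the floor of detection, were worth 0.0890 to 0.137 CPM (counts scaled to a library total of 1000000). Cdh1 (E-cadherin), the defining epithelial marker, stood at 606 to 1145 CPM in 7 untreated lines. It was 0.522 CPM in dHD1/fl line 2 and 0.237 CPM in dHD1/- line 2, and this marker goes against their epithelial label. Both lines were also the highest in mesenchymal and fibroblast markers. Not all epithelial markers were lost in them, since 6 of 9 were over 3 reads in each. The 9 summed to 358 and 1316 CPM in these lines, against 4304 CPM or more in the other 7. The summed CPM of 10 T cell and immune markers was 0 to 0.426 in every library. Lines 2 and 3 of dHD2/- were much more alike than any other pair of lines within a group (Pearson r of log2(CPM + 1) over the tested genes 0.993 to 0.997). Either of them with line 1 had 0.885 to 0.907, and the next closest pair, the dHD2/fl lines, 0.945 to 0.957. The labels describe replicates as lines from different mice, and since the files do not show that these lines are independent, counts of lines are also given over 8 lines, with both averaged. Axin2, the usual readout of β-catenin activity, was 0.131 to 2.97 CPM without cytokine and 13.5 to 80.8 CPM under Wnt3a, and its log2 fold change in the mean response was 4.22 ± 0.19 (SE; limma, adjusted p = 7.26e-10). Over all conditions Bcl9 was 32.4 to 104 CPM in fl and 33.2 to 67.8 CPM in - lines, and Bcl9l 128 to 323 and 70.7 to 346 CPM, and counts per gene do not tell the mutant from the floxed allele.

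Per base of exon, Tle3 and Tle1 had the highest median levels of the members in untreated cells. Levels between genes were compared as CPM per kilobase of merged exon (CPM per kb). The untreated medians over 9 lines were 24.3 CPM per kb for Tle3, 14.1 for Tle1, 7.88 for Tcf7, 6.2 for Tcf7l1, 6.03 for Tcf7l2, 2.39 for Tle2, 0.884 for Tle4 and 0.0317 for Lef1. Tle3 stood above Tle1, and Tle1 above Tcf7, in 9 of 9 lines. Tcf7l1 stood above Tle1 in dHD1/fl line 2, dHD1/- line 2 and dHD2/fl line 2. Tcf7, Tcf7l1 and Tcf7l2 had no fixed order: Tcf7 was above Tcf7l1 in 5 of 9 lines and Tcf7l1 above Tcf7l2 in 4 of 9. Of the neighbours in this order, Tcf7l2 and Tle2 had ranges over lines that did not overlap, with a lowest Tcf7l2 of 4.41 and a highest Tle2 of 3.75 CPM per kb. The other 6 neighbouring pairs overlapped in range. With the longest transcript as the length, the medians of Tcf7l2 and Tcf7l1 were 7.23 and 6.28 CPM per kb, which turns their order. Lef1 and Tle4 were above the floor in some lines and at or under it in others.

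**Figure D1:**
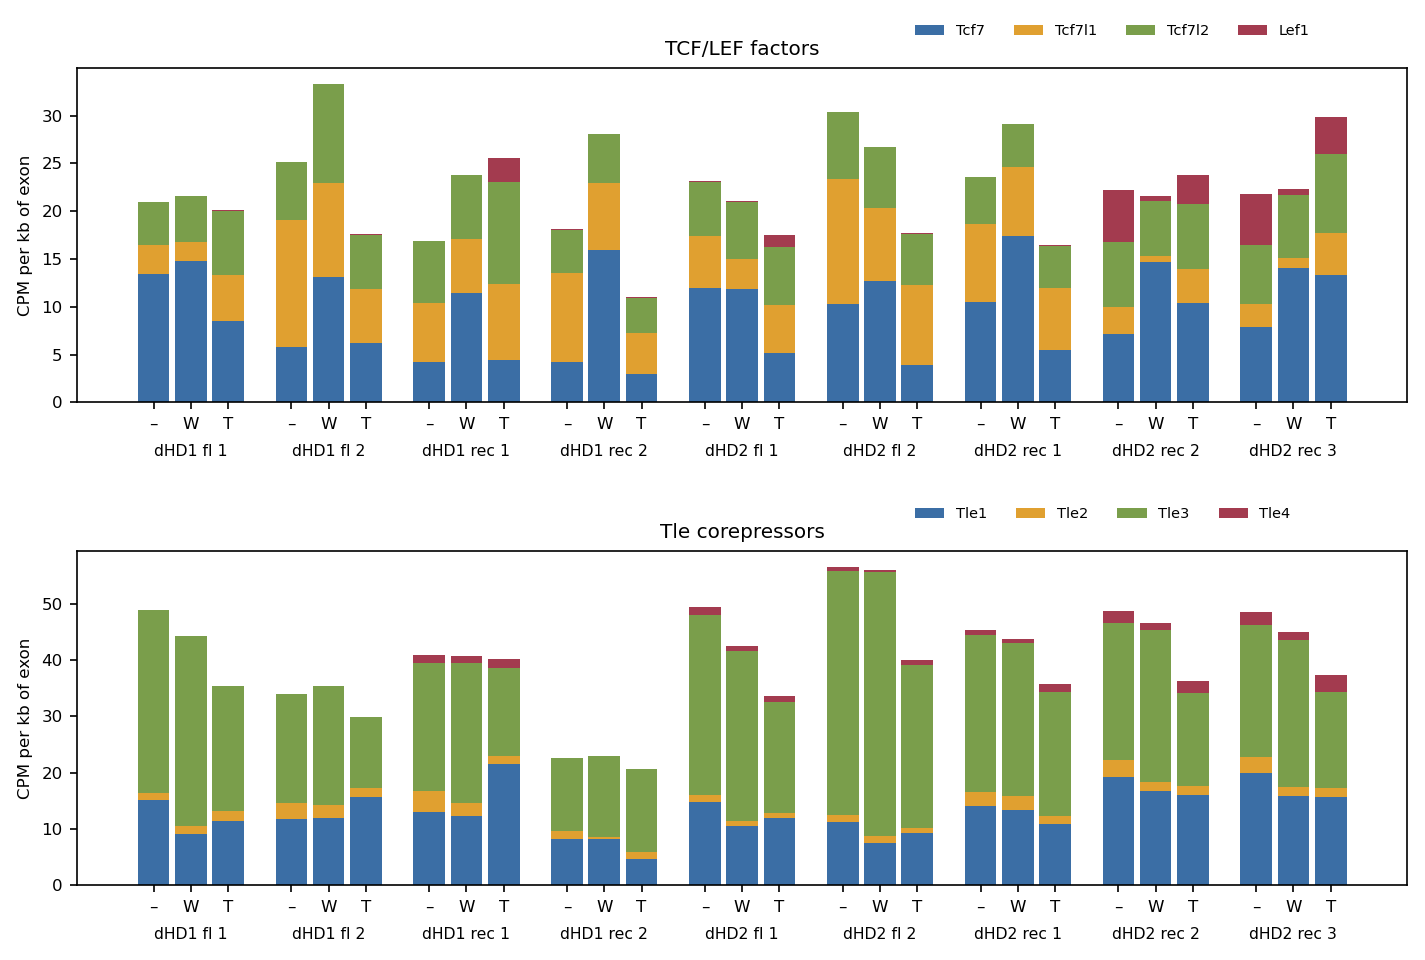
Stacked bars give CPM per kb of merged exon for the 4 TCF/LEF factors (upper panel) and the 4 Tle corepressors (lower panel) in each of 27 libraries, grouped by line (rec stands for the - genotypes), with – for untreated, W for Wnt3a and T for TGFb. In the lower panel Tle3 makes the largest block in most bars, and the untreated Tle sum runs from 22.7 to 56.6 CPM per kb; in the upper panel the red Lef1 block is visible mainly in dHD2 rec lines 2 and 3 and in TGFb-treated dHD1 rec line 1 and dHD2 fl line 1.

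Summed over each family, the untreated TCF/LEF level was 16.8 to 30.4 CPM per kb (median 22.2) and the Tle level 22.7 to 56.6 (median 48.5). The Tle sum exceeded the TCF/LEF sum 1.25- to 2.43-fold in untreated lines, with the lowest ratios, 1.25 and 1.35, in the Cdh1-low dHD1/- line 2 and dHD1/fl line 2. Under Wnt3a the ratio of the Tle sum to the TCF/LEF sum was lower in 8 of 9 lines (7 of 8 with the near-identical pair averaged), and in dHD1/- line 2 it was 0.816, the lowest of the 27 libraries. Under TGFb the Tle sum was lower in 9 of 9 lines (8 of 8), at 0.680 to 0.979 of the untreated level, and with median-of-ratios scaling in 7 of 9, at 0.775 to 1.16. These sums are descriptions and were not tested. In RNA from whole cultures, fewer cells that express a gene and less of its RNA per cell cannot be told apart, which holds for every level given here.

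How much of a member's variation lay between lines and how much between treatments differed widely. For Tle4, 97.2% of the sum of squares of log2(CPM + 1) over the 27 libraries lay between lines and 1.46% between treatments. Tcf7 was at the other end, with 23.2% between lines and 49.0% between treatments. The shares between lines of the other members were 55.1% (Tle2), 58.7% (Tcf7l2), 66.6% (Lef1), 69.1% (Tcf7l1), 69.3% (Tle3) and 72.6% (Tle1), around the median of 66.1% over all tested genes. Tle3 had 24.9% between treatments, against a median of 10.7% over all tested genes, and left 5.84% to the rest.

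By the criteria in the methods of the study, an adjusted p of at most 0.05 and a 2-fold change, 0 of 8 members were called in any of 20 comparisons (limma on log2(CPM + 1) with one mean per group, 13270 genes tested). The same criteria called 0.0226% of all genes in the mean Wnt3a response over the 4 genotypes and 5.42% in the mean TGFb response. The Wnt3a background within genotypes was 0.0151% in dHD1/fl, 0.00754% in dHD1/-, 0.113% in dHD2/fl and 0.00754% in dHD2/- lines. The TGFb background was 0.211% in dHD1/fl, 1.43% in dHD1/-, 0.286% in dHD2/fl and 0.806% in dHD2/- lines. With backgrounds this low, no call among 8 genes is not a result about the members. At an unadjusted p under 0.05, 1 member passed in the mean Wnt3a response (Tcf7), where 4.63% of all genes did, and 2 in the mean TGFb response (Tcf7 and Tle3), where 31.3% did. On the recovered reads without a block, edgeR also called 0 of 8 in all 20 comparisons. Within genotypes Tcf7 passed that unadjusted limit under Wnt3a in dHD1/- and dHD2/- lines and under TGFb in dHD2/fl lines, and no other member passed it. The shares of all genes at this limit in dHD1/fl, dHD1/-, dHD2/fl and dHD2/- lines were 1.6%, 0.203%, 1.31% and 0.934% under Wnt3a and 9.5%, 13.4%, 8.71% and 10.8% under TGFb. Since the same 9 lines were measured under all 3 conditions, each treatment comparison was also fitted with the cell line as a block, and the blocked value is given wherever it changes a call. With this block the background rose to 0.241% for the mean Wnt3a response and 8.92% for the mean TGFb response.

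Tcf7 (TCF1; Entrez 21414; chr11:52252371-52283014, minus strand, mm10) was higher under Wnt3a in 8 of 9 lines, and in 9 of 9 with median-of-ratios scaling. In untreated lines it stood at 35.3 and 15.1 CPM in dHD1/fl lines 1 and 2, 11.0 and 11.2 in dHD1/- lines 1 and 2, 31.4 and 27.1 in dHD2/fl lines 1 and 2, and 27.6, 18.7 and 20.7 in dHD2/- lines 1 to 3. Under Wnt3a the same lines, in this order, had 38.9, 34.5, 30.2, 41.9, 31.0, 33.3, 45.7, 38.4 and 36.9 CPM. Untreated lines spread 3.21-fold, and Wnt3a-treated lines 1.52-fold. The lines that were low without cytokine differed most, but a fold and the untreated level share a library and are not independent. The higher lines (7 of 8 with dHD2/- lines 2 and 3 averaged) differed by 1.10- to 3.74-fold, and it was 1.01-fold lower in dHD2/fl line 1. The mean log2 fold change was 0.80 ± 0.18 (SE), with an adjusted p of 0.265 in limma without the block and 0.0547 with it, and over 21 alternatives the adjusted p ran from 0.0127 to 1 with 0 calls. At adjusted p alone, with no fold limit, the blocked fit passed 0.814% of all genes in this response, and Tcf7 was just outside.

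By genotype, the log2 fold change of Tcf7 under Wnt3a was 0.64 ± 0.37 in dHD1/fl, 1.60 ± 0.37 in dHD1/-, 0.14 ± 0.37 in dHD2/fl and 0.84 ± 0.31 in dHD2/- lines. Within each family the - genotype had the larger estimate and the lower untreated mean, which share the untreated libraries and so are not independent. Neither difference between - and fl lines was called for any member, in either fit. At an unadjusted p under 0.05 no member passed in the Wnt3a differences, and 1, Tcf7 in dHD2, passed in those under TGFb. Of all genes, 0.113% (dHD1) and 0.558% (dHD2) passed this limit for Wnt3a, and 0.98% (dHD1) and 1.35% (dHD2) for TGFb. By adjusted p and 2-fold change the background of these differences was 0% (dHD1) and 0.0151% (dHD2) for Wnt3a, and 0.00754% (dHD1) and 0.0301% (dHD2) for TGFb. With the block it was 0% and 0.121% for Wnt3a, and 0.0226% and 0.098% for TGFb. In the blocked fit of single genotypes under Wnt3a 0 of 8 members were called, with backgrounds of 0.00754% (dHD1/fl), 0.00754% (dHD1/-), 0.324% (dHD2/fl) and 0.00754% (dHD2/-).

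Under TGFb Tcf7 was higher in some lines and lower in others. The levels were 22.2, 16.3, 11.6, 7.85, 13.5, 10.4, 14.3, 27.2 and 34.8 CPM in the same order of lines. It was lower in 5 lines, by 1.43- to 2.61-fold, and higher in 4 (5 and 3 of 8 with the pair averaged), by 1.06- to 1.69-fold, both dHD2/fl lines being among the lower and dHD2/- lines 2 and 3 having the largest positive differences. In dHD2/fl lines the log2 fold change was -1.23 ± 0.37, with an adjusted p of 0.254 in limma without the block. With the cell line as a block (SE 0.36, adjusted p = 0.0482) Tcf7 was called lower, the 1 member call of that fit. It was called in 2 of 21 alternatives, the fixed and the random line block, over which the adjusted p ran from 0.0216 to 1, and edgeR on recovered reads with the block gave 0.0736. There the blocked background was 5.24%, against 5.42% in dHD1/fl, 9.33% in dHD1/- and 6.03% in dHD2/- lines, where 0 of 8 members were called. The difference between dHD2/- and dHD2/fl lines in the TGFb response of Tcf7 was 1.35 ± 0.48 on the log2 scale (limma, unadjusted p = 0.0124, adjusted p = 1; blocked adjusted p = 0.492).

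**Figure D2:**
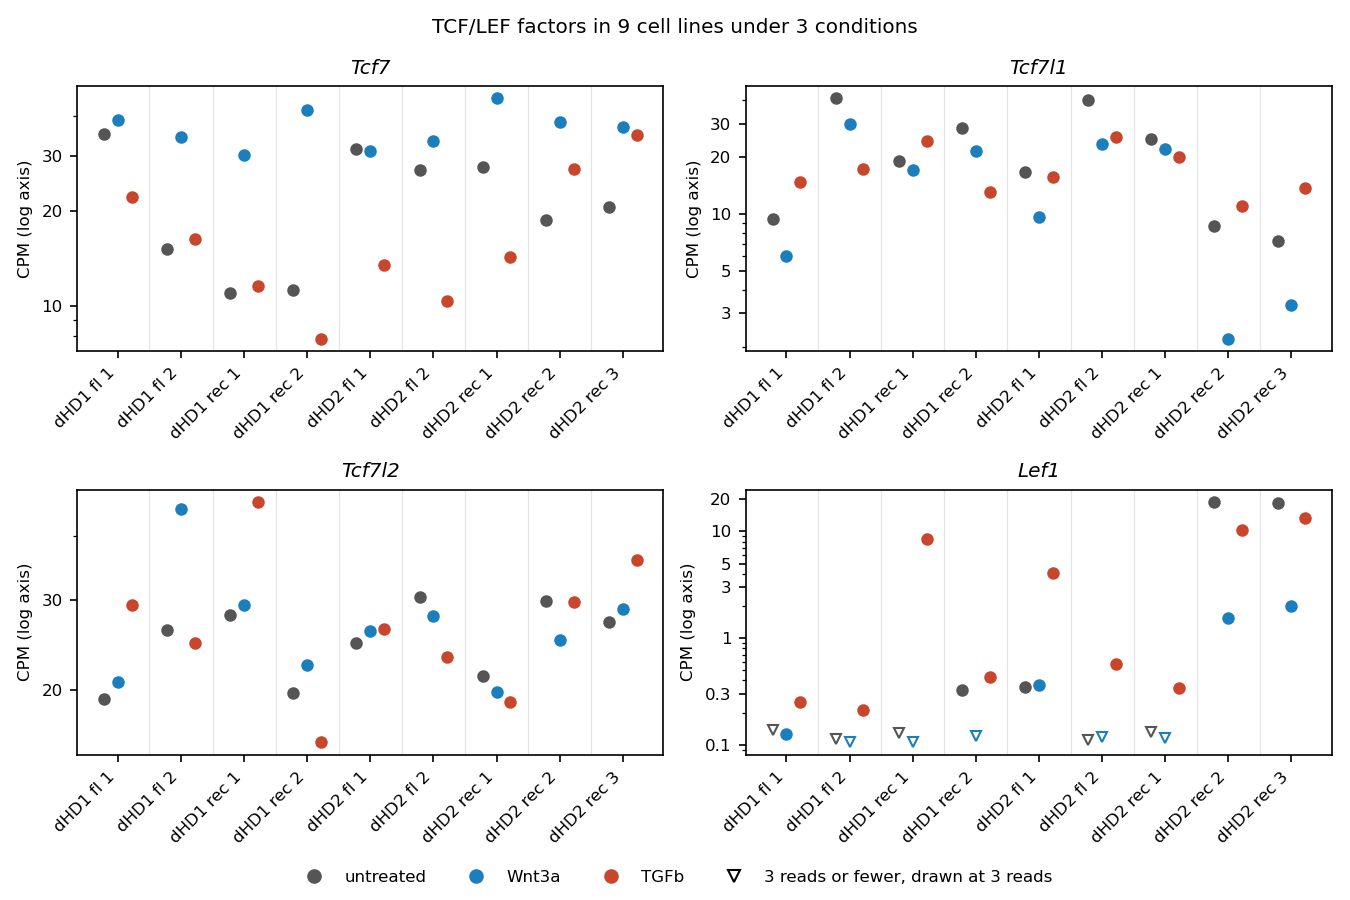
Each panel gives one TCF/LEF factor, with CPM on a log axis for 9 cell lines under no cytokine (grey), Wnt3a (blue) and TGFb (red); open triangles are libraries with 3 reads or fewer, drawn at the value of 3 reads. The blue Tcf7 points lie between 30.2 and 45.7 CPM in all lines, the blue Tcf7l1 points lie below the grey ones in 9 of 9 lines, and Lef1 is above 1 CPM in 8 of 27 libraries.

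Tcf7l1 (TCF3; Entrez 21415; chr6:72626378-72789254, minus strand) was lower under Wnt3a in every line. Without cytokine it was 9.47 and 41.2 CPM in dHD1/fl lines 1 and 2, 19.1 and 28.5 in dHD1/- lines 1 and 2, 16.8 and 40.2 in dHD2/fl lines 1 and 2, and 25.1, 8.65 and 7.28 in dHD2/- lines 1 to 3. Under Wnt3a these were 6.02, 30.1, 17.1, 21.5, 9.74, 23.4, 22.1, 2.20 and 3.33 CPM. It was lower in 9 of 9 lines (8 of 8 with the pair averaged), with either scaling, by 1.12- to 3.93-fold, with the largest difference in dHD2/- line 2. The mean log2 fold change of -0.60 ± 0.43 (SE) did not pass the test (limma, adjusted p = 1.000 without and 0.257 with the block); the untreated lines spread 5.66-fold.

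The per-kb ratio of Tcf7 to Tcf7l1 was higher under Wnt3a in 9 of 9 lines (8 of 8 with the pair averaged). Untreated ratios ran from 0.431 in dHD1/fl line 2 to 4.38 in dHD1/fl line 1, with a median of 1.30. Under Wnt3a they ran from 1.35 to 20.5, with a median of 2.43, so that Tcf7 exceeded Tcf7l1 in every Wnt3a-treated line. The change within a line was 1.70- to 8.06-fold, and the direction was the same in both members of the near-identical pair. Under TGFb the ratio was higher in 3 lines and lower in 6 (3 and 5 of 8). Tcf7l1 under TGFb was 14.8, 17.4, 24.5, 13.1, 15.7, 25.6, 20.1, 11.0 and 13.8 CPM, higher in 4 lines and lower in 5 (3 and 5 of 8). Its range over lines narrowed from 5.66-fold to 2.32-fold, and the mean log2 fold change was -0.19 ± 0.43 (limma, adjusted p = 0.808).

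Tcf7l2 (TCF4; Entrez 21416; chr19:55741820-55933654, plus strand) had the smallest SD of log2(CPM + 1) of the TCF/LEF members over the 27 libraries, 0.345. Within a treatment it was not always the steadiest. Under Wnt3a it spread 2.29-fold over lines and Tcf7 1.52-fold, and under TGFb it spread 2.96-fold and Tcf7l1 2.32-fold. Untreated levels were 19.2 to 30.5 CPM (median 26.3), those under Wnt3a 19.8 to 45.3 (median 26.1), and those under TGFb 15.8 to 46.7 (median 26.4). The highest values were in dHD1/fl line 2 under Wnt3a and in dHD1/- line 1 under TGFb, and no other library exceeded 35.9 CPM. Mean log2 fold changes were 0.11 ± 0.20 for Wnt3a and 0.10 ± 0.20 for TGFb, with 6 and 4 of 9 lines higher (5 and 4 of 8 with the pair averaged). Neither response passed the test (limma, adjusted p = 1.000 for Wnt3a and 0.784 for TGFb).

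Lef1 (Entrez 16842; chr3:131110471-131224356, plus strand) was the TCF/LEF member that divided the lines. Without cytokine it had 424 reads (19.1 CPM) and 442 reads (18.5 CPM) in dHD2/- lines 2 and 3. The other 7 untreated lines had 0 to 11 reads, at most 0.345 CPM, and 5 of them were at or under 3 reads. Lef1 is therefore an expressed gene in the near-identical pair of dHD2/- lines and was at or near the floor elsewhere, dHD2/- line 1 included, where it had 0 reads. The untreated comparison of dHD2/- with dHD2/fl lines gave a log2 fold change of 2.58 ± 1.14 (limma, adjusted p = 0.540), and it rests on the near-identical pair.

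In both lines that expressed Lef1 without cytokine, its level was lower under Wnt3a. The level went from 19.1 to 1.54 CPM in dHD2/- line 2, 12.4-fold lower, and from 18.5 to 2.00 CPM in line 3, 9.24-fold lower, over 37 and 56 reads. Elsewhere Wnt3a left Lef1 at 0 to 9 reads. The mean response over the 3 dHD2/- lines, line 1 at 0 reads in both libraries, was -1.90 ± 1.02 on the log2 scale (limma, adjusted p = 1; with the block SE 0.59 and adjusted p = 0.678). Lef1 and Axin2 thus went in opposite directions in these lines, since Axin2 was 0.675 and 0.544 CPM without cytokine and 21.0 and 18.4 CPM under Wnt3a.

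Under TGFb Lef1 was higher in the 7 lines that had had little of it and lower in the pair that expressed it (7 higher and 1 lower of 8 with the pair averaged). The largest differences were in dHD1/- line 1, from 1 read to 216 reads (8.58 CPM), and dHD2/fl line 1, from 8 reads to 109 reads (4.12 CPM, 11.9-fold higher). The other 5 lines had 6 to 16 reads, 0.213 to 0.568 CPM, under TGFb, and in dHD1/- line 2 the difference was that of 11 and 12 reads. In dHD2/- lines 2 and 3 Lef1 went to 10.4 and 13.4 CPM, 1.83- and 1.38-fold lower. The mean log2 fold change was 0.72 ± 0.60 (limma, adjusted p = 0.437; with the block 0.101), and over 21 alternatives it ran from 0.337 to 3.33. On recovered reads with the same block, edgeR called Lef1 higher (adjusted p = 0.0093, the lowest of 21 alternatives, which ran up to 0.796) where it called 13.8% of all genes, against 0.362% for Wnt3a, and the fitted fold of a gene with groups near 0 reads depends on the prior count. In dHD1/- line 1, where this difference was largest, Cdh1 went from 817 to 4.29 CPM under TGFb; in dHD2/fl line 1 Cdh1 went from 1053 to 703 CPM, and the part of these shifts in the Lef1 values was not tested.

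The RefSeq promoter windows (GRCm38.p6, 250 bases before to 50 after a start) hold 4 starts for Lef1, and the bases before the outermost and the innermost are shown because Lef1 had the largest SD of log2(CPM + 1) of the 8 members over the 27 libraries, 1.47; reads were not counted per start. They were searched on both strands for the TCF/LEF letters CTTTGAA (with AA, AT, TA or TT as the last bases), for the Smad letters CAGACA and for the E-box CACCTG, and capitals mark matches. The stretch before the outermost start, upstream of the annotated gene at chr3:131110047-131110296 (plus strand), holds no match, and the stretch in an intron at chr3:131156044-131156293 (plus strand) holds 1 TCF/LEF and 2 Smad matches. The intronic start of Tcf7l2 at chr19:55895071-55895320 (plus strand) holds the other TCF/LEF match before a start. The matches do not overlap each other.
Lef1, outermost start: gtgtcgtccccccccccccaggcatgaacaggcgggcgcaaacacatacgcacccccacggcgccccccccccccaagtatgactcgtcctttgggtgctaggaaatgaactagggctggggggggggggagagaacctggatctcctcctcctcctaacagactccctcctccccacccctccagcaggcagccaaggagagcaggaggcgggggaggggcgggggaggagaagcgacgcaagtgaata
Lef1, intronic: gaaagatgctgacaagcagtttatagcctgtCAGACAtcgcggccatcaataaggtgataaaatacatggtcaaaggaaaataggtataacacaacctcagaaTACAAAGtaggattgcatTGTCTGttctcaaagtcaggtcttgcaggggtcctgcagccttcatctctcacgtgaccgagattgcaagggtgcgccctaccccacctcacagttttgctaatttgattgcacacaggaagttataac
Tcf7l2, intronic: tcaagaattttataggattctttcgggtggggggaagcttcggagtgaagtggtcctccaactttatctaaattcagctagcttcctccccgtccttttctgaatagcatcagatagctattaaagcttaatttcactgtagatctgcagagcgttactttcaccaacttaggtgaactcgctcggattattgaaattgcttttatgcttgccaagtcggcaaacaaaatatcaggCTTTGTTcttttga

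All 8 members had at least 1 window, 14 in all. Of 27025 genes with a window, 18.9% held a TCF/LEF match, 23.6% a Smad match and 22.6% an E-box, and among the 8 members 2 (Tcf7l2 and Lef1), 1 (Lef1) and 2 (Tcf7 and Lef1, both after a start) did. These shares describe letters and say nothing of binding. Shorter forms of Tcf7, Lef1 and Tcf7l2 that lack the β-catenin-binding end are known, and since the counts merge all transcripts of a gene they cannot be told apart from full-length ones. Of the members, Tle3 and Tle4 overlap no other annotated gene. Tle1 and Tle2 overlap genes on the other strand. The 4 TCF/LEF members each overlap at least 1 gene on the same strand, which is Ppnr for Tcf7l2 and predicted (Gm) genes for the others, and whether reads were counted by strand is not given in the sources used here.

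Tle3 (Entrez 21887; chr9:61372366-61418497, plus strand), the most abundant corepressor per kb in every untreated line, was lower under TGFb. Per kb, Tle1 exceeded it under TGFb in dHD1/fl line 2 and dHD1/- line 1. Without cytokine it was 153 and 90.7 CPM in dHD1/fl lines 1 and 2, 107 and 61.6 in dHD1/- lines 1 and 2, 150.2 and 204 in dHD2/fl lines 1 and 2, and 132, 114 and 111 in dHD2/- lines 1 to 3. With TGFb these were 104, 59.2, 73.6, 69.3, 92.2, 136, 103, 77.2 and 80.7 CPM. It was lower in 8 of 9 lines (7 of 8 with dHD2/- lines 2 and 3 averaged), by 1.27- to 1.63-fold, and 1.13-fold higher in dHD1/- line 2, a Cdh1-low line that had the lowest untreated level. The other Cdh1-low line, dHD1/fl line 2, had the next lowest untreated level and was 1.53-fold lower under TGFb.

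The mean log2 fold change of Tle3 under TGFb was -0.46 ± 0.17 (SE; limma, adjusted p = 0.0736). With the cell line as a block the SE was 0.074 and the adjusted p 0.000326, below the 2-fold limit, in a fit where 47.6% of all genes passed at adjusted p alone. Within genotypes the blocked fit gave -0.58 ± 0.15 in dHD1/fl (adjusted p = 0.0347), -0.18 ± 0.15 in dHD1/- (adjusted p = 0.453), -0.64 ± 0.15 in dHD2/fl (adjusted p = 0.0232) and -0.45 ± 0.13 in dHD2/- lines (adjusted p = 0.0302). The shares of all genes that passed at adjusted p alone were 10.4%, 19.7%, 10.7% and 15.2% in these genotypes. Each of these blocked adjusted p values of Tle3 was the lowest of 21 alternatives. The dHD2/- value takes the near-identical lines 2 and 3 as separate lines. The median gene moved by -0.16 on the log2 scale in the mean TGFb response, and with median-of-ratios scaling, which removes such a shift, the difference of Tle3 was -0.29 (adjusted p = 0.332 without and 0.0125 with the block). Under Wnt3a Tle3 ran from 67.5 to 220.4 CPM and differed by between -5.66% and 11.1% within a line, with a mean log2 fold change of 0.08 ± 0.17.

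**Figure D3:**
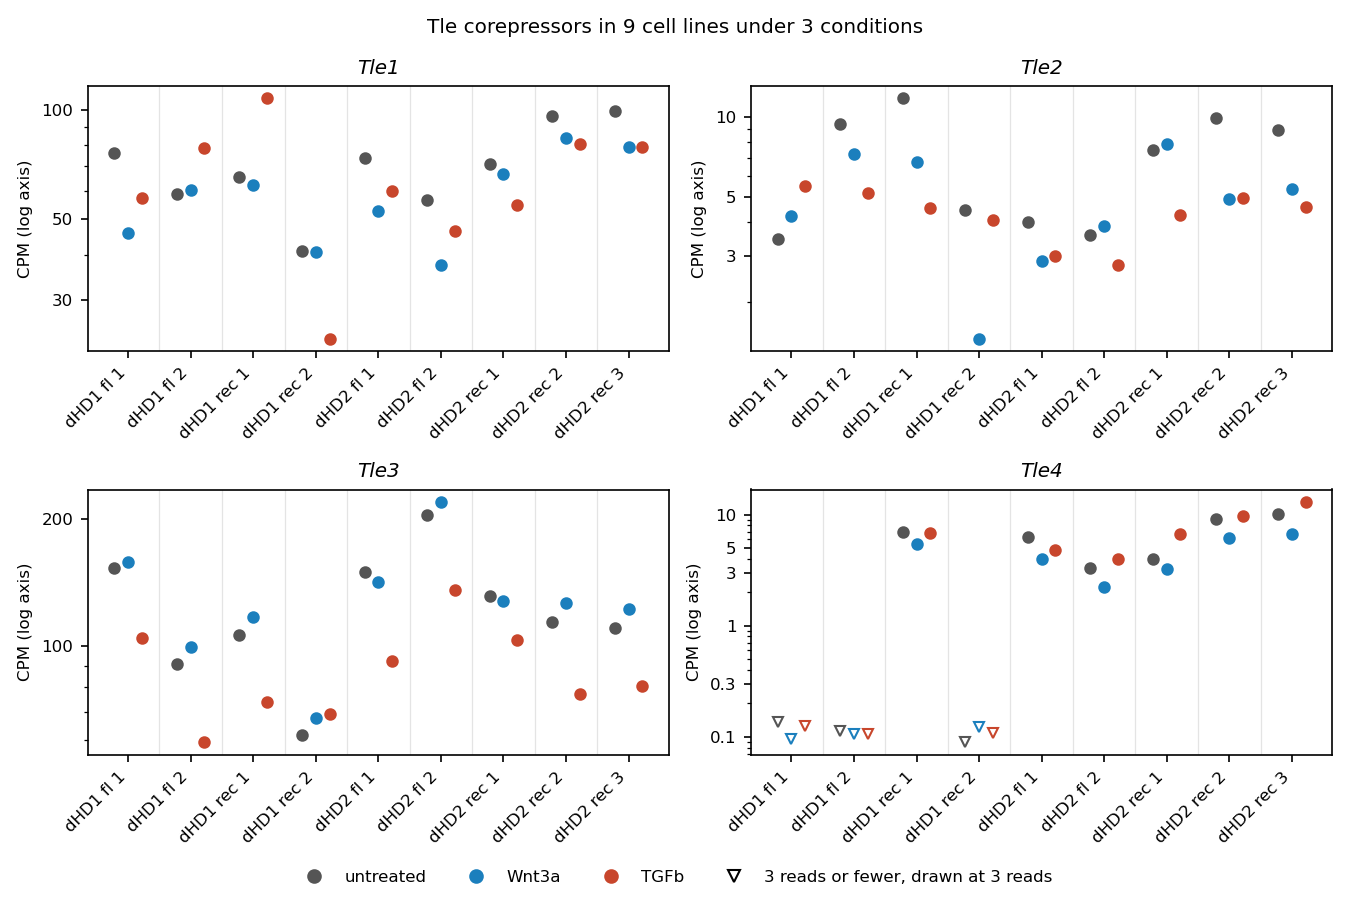
Each panel gives one Tle corepressor, with CPM on a log axis for 9 cell lines under no cytokine (grey), Wnt3a (blue) and TGFb (red); open triangles are libraries with 3 reads or fewer, drawn at the value of 3 reads. The red Tle3 points lie below the grey ones in 8 of 9 lines, and Tle4 is at the floor in all 9 libraries of dHD1 fl lines 1 and 2 and dHD1 rec line 2.

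Tle1 (Entrez 21885; chr4:72117142-72200919, minus strand) was expressed in every library at 23.4 to 108 CPM. Untreated levels were 76.4 and 58.7 CPM in dHD1/fl lines 1 and 2, 65.5 and 41.0 in dHD1/- lines 1 and 2, 74.0 and 56.5 in dHD2/fl lines 1 and 2, and 71.0, 96.2 and 99.7 in dHD2/- lines 1 to 3. The Wnt3a-treated libraries had 45.7, 60.1, 62.1, 40.8, 52.9, 37.5, 66.6, 84.0 and 79.3 CPM in the same order, and the TGFb-treated ones 57.2, 78.6, 108, 23.4, 59.8, 46.6, 54.8, 80.9 and 79.1 CPM. It was lower under Wnt3a in 8 of 9 lines (7 of 8 with the pair averaged), by 1.00- to 1.67-fold, with a mean log2 fold change of -0.28 ± 0.23 (limma, adjusted p = 1.000; blocked 0.328). TGFb gave the widest range, from 23.4 CPM in dHD1/- line 2 to 108 CPM in dHD1/- line 1, with 2 lines higher and 7 lower (2 and 6 of 8). Its mean log2 fold change of -0.16 ± 0.23 was close to that of the median gene, and median-of-ratios scaling and edgeR turned its sign. The replicate lines of dHD1/- differed in direction, 1.65-fold higher in line 1 and 1.75-fold lower in line 2.

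Tle2 (Entrez 21886; chr10:81574561-81590845, plus strand) was low but above the floor throughout, with 36 to 275 reads. Its untreated levels were 3.48 and 9.40 CPM in dHD1/fl lines 1 and 2, 11.8 and 4.45 in dHD1/- lines 1 and 2, 4.01 and 3.59 in dHD2/fl lines 1 and 2, and 7.51, 9.86 and 8.92 in dHD2/- lines 1 to 3. The 3 dHD2/- lines, of which 2 and 3 are the near-identical pair, were all above the dHD2/fl lines without cytokine. The log2 difference was 1.02 ± 0.44 (limma, adjusted p = 0.531). How many of all genes separate in this way was not counted, so this is not a result about Tle2. Under Wnt3a the same lines had 4.25, 7.25, 6.78, 1.46, 2.86, 3.89, 7.90, 4.90 and 5.33 CPM and under TGFb 5.47, 5.15, 4.53, 4.10, 2.99, 2.77, 4.28, 4.95 and 4.59 CPM. The TGFb-treated lines thus lay at 2.77 to 5.47 CPM, lower in 8 of 9 (7 of 8 with the pair averaged), and the range over lines narrowed from 3.38-fold to 1.97-fold. The mean log2 fold change under TGFb was -0.47 ± 0.23 (limma, adjusted p = 0.181). The block gave an SE of 0.17 and an adjusted p of 0.0403, below the 2-fold limit, where 47.6% of all genes passed at adjusted p alone. Over 21 alternatives the log2 fold change ran from -0.63 to -0.31, and the adjusted p from 0.0246 to 0.416, with 0 calls. With Wnt3a the mean log2 fold change was -0.40 ± 0.23 (adjusted p = 1.000; blocked 0.266), with 6 of 9 lines lower (5 of 8).

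Tle4 (Entrez 21888; chr19:14448150-14598051, minus strand) was either expressed or not detected, by line and not by treatment. It had 0 to 2 reads in all 9 libraries of dHD1/fl lines 1 and 2 and dHD1/- line 2. In the other 6 lines it had 56 to 314 reads in each of 18 libraries, among them 162 untreated reads (6.93 CPM) in dHD1/- line 1. The untreated levels of the remaining lines were 6.25 and 3.33 CPM in dHD2/fl lines and 4.02, 9.19 and 10.2 CPM in dHD2/- lines. The lines without Tle4 included both Cdh1-low lines and also dHD1/fl line 1, whose Cdh1 was 606 CPM. All 3 were dHD1 lines, and 1 of the 4 dHD1 lines expressed the gene.

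Within the 6 lines that expressed it, Tle4 was lower under Wnt3a in 6 of 6 (5 of 5 with the pair averaged), by 1.24- to 1.57-fold. The Wnt3a-treated levels were 5.49 CPM in dHD1/- line 1, 3.99 and 2.22 in dHD2/fl lines and 3.24, 6.10 and 6.69 in dHD2/- lines. The fit over all lines gave -0.27 ± 0.45 (limma, adjusted p = 1.000), and the block gave an SE of 0.087 and an adjusted p of 0.175. TGFb left it higher in 4 of these lines and lower in 2 (3 and 2 with the pair averaged), at 4.01 to 13.1 CPM, and with median-of-ratios scaling higher in 5 and lower in 1. In the share of the Tle sum per kb, Tle4 was at most 7.73% in any library.

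**Figure D4:**
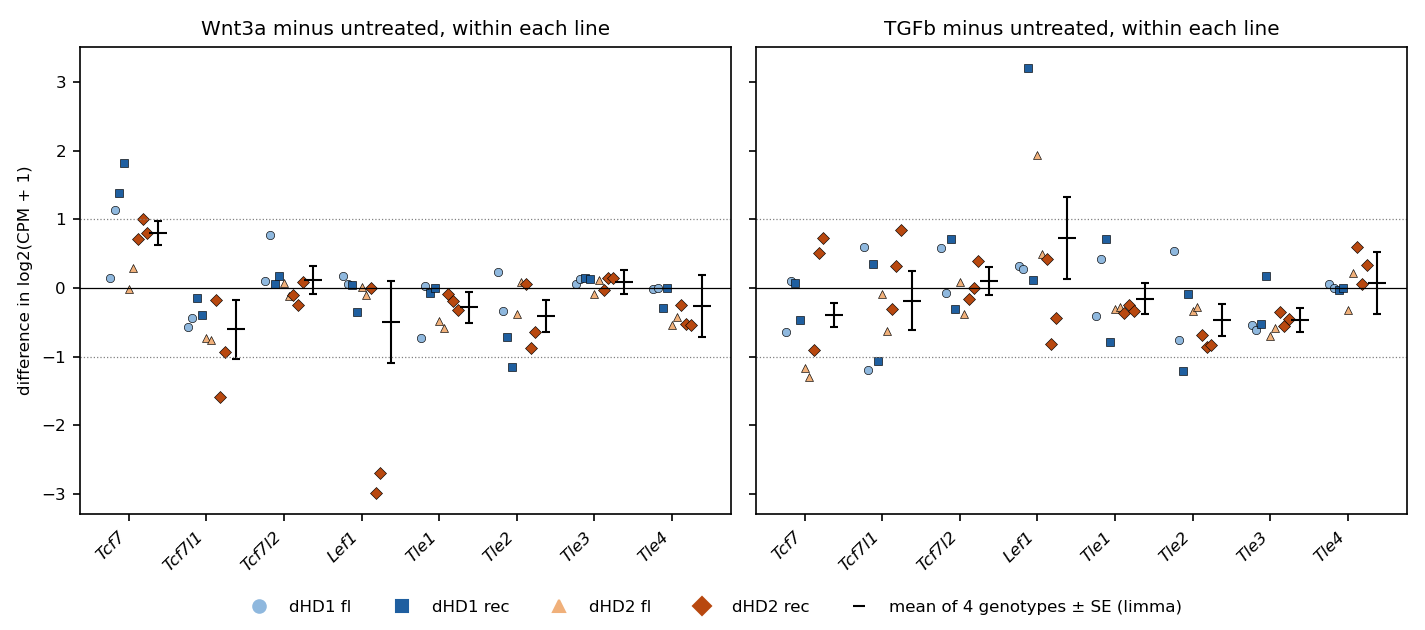
Points give the difference in log2(CPM + 1) between a treated and the untreated library of the same line, for Wnt3a (left) and TGFb (right), with symbols for the 4 genotypes; black bars are the mean over genotypes ± SE from limma, and dotted lines mark 2-fold. On the left Tcf7 lies above 0 in 8 of 9 lines, Tcf7l1 below 0 in 9 of 9 and Lef1 near -3 in dHD2 rec lines 2 and 3; on the right Tle3 lies below 0 in 8 of 9 lines.

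Between genotypes, comparisons of - with fl lines called 0 of 8 members in each condition by limma and by edgeR. At an unadjusted p under 0.05, 1 passed for dHD1 untreated and 1 under TGFb (Tcf7 in both), 2 for dHD2 untreated (Lef1 and Tle2) and 1 under TGFb (Tcf7), and 0 under Wnt3a. The shares of all genes at this limit, untreated, under Wnt3a and under TGFb, were 4.85%, 5.86% and 8.22% for dHD1 and 8.61%, 8.64% and 7.98% for dHD2, so that 1 of 8 members is close to them. By adjusted p and 2-fold change the background for dHD1 was 0.0678% untreated, 0.0452% under Wnt3a and 0.0301% under TGFb. For dHD2 it was 0.55% untreated, 0.686% under Wnt3a and 0.354% under TGFb. The untreated dHD1/- lines had 11.0 and 11.2 CPM of Tcf7 against 35.3 and 15.1 in dHD1/fl, a log2 difference of -0.998 ± 0.37 (unadjusted p = 0.0160, adjusted p = 0.765). Under TGFb Tcf7 was also lower in dHD1/- lines, by a log2 difference of -0.93 ± 0.37 (adjusted p = 0.495), and higher in dHD2/- than dHD2/fl lines, 0.96 ± 0.34 (adjusted p = 0.410). The groups of Tcf7 did not overlap in these 3 comparisons. The share of all genes whose groups separate was not counted, so separation, here or under Wnt3a, is not a result about Tcf7. Groups held 2 or 3 lines, and dHD2/- included the near-identical pair. Under Wnt3a the dHD1 groups overlapped, with 38.9 and 34.5 CPM in dHD1/fl and 30.2 and 41.9 in dHD1/- lines, and the dHD2 groups did not, with 31.0 and 33.3 CPM in dHD2/fl and 36.9 to 45.7 in dHD2/- lines (log2 difference 0.31 ± 0.34, adjusted p = 0.895).

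The relatives Tle5 (AES), which lacks the carboxy-terminal WD40 repeats of the full-length corepressors, and Tle6, which differs from them in its amino-terminal part, were set beside the members. Tle5 was 192 to 343 CPM without cytokine, and per kb it stood 3.61- to 6.02-fold above the sum of Tle1 to Tle4. It was higher under Wnt3a in 8 of 9 lines (8 of 8 with the pair averaged) and lower under TGFb in 7 of 9 (6 of 8, and 5 of 9 with median-of-ratios scaling), and neither relative was called in a mean response. Tle6 was 0.0450 to 8.38 CPM without cytokine.

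Of 21 partners and regulators of TCF/LEF and Tle proteins, 19 passed the filter on low values. In the mean TGFb response 1 of 19 was called: Tbl1xr1, which exchanges corepressors for coactivators, fell from a median of 61.7 to 26.3 CPM, a log2 fold change of -1.33 ± 0.19 (limma, adjusted p = 0.000246). This count is near the background of 5.42% and is not a result about the list. In the mean Wnt3a response 0 of 19 were called, with or without the block. The median log2 fold change of the 19 was -0.15 under Wnt3a and -0.06 under TGFb, beside -0.06 and -0.16 over all tested genes. Among 9 tested Wnt target genes, Axin2 was called higher in the Wnt3a response, and Notum, the secreted Wnt deacylase, was called lower under TGFb (-3.99 ± 0.52, adjusted p = 0.000117). With the block Notum was also called higher under Wnt3a (2.16 ± 0.25, adjusted p = 0.00298). Of 8 tested factors other than TCF/LEF that recruit Tle proteins, 0 were called in either mean response, and the block called 1 of 8, Runx3, lower under TGFb, near its background of 8.92%. The TGFb target genes Smad7, Skil, Ccn2, Fn1 and Itga5 were called higher under TGFb.

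Marker genes of the epithelial and mesenchymal states differed under TGFb in the blocked fit. No epithelial marker (0 of 9) or mesenchymal marker (0 of 6) was called in the mean TGFb response without the block, and with it, at a background of 8.92%, Cdh1, Krt5, Krt14 and Esrp1 were called lower and Cdh2 and Zeb2 higher. Other markers of the same lists had the opposite sign and were not called: the log2 fold changes of the epithelial keratins were 0.90 for Krt18 (blocked limma, adjusted p = 0.0152) and 0.64 for Krt8 (adjusted p = 0.0797), and those of the mesenchymal factors were -0.40 for Twist1 (adjusted p = 0.0239) and -0.45 for Snai2 (adjusted p = 0.106). The summed CPM of the epithelial markers was 358 to 19932 in untreated and 37.6 to 7067 in TGFb-treated libraries, and that of the mesenchymal markers 147 to 4602 and 395 to 4471. Fibroblast markers summed to 4.48 to 5430 CPM without cytokine and 34.7 to 4637 CPM under TGFb, with Col1a1 called higher by the blocked fit. The Cdh1-low lines stood apart on these markers without cytokine: dHD1/fl line 2 and dHD1/- line 2 had 4602 and 4036 CPM of mesenchymal and 2042 and 5430 CPM of fibroblast markers, against at most 957 and 504 CPM in the other 7 lines, and the part of this in their Tle1, Tle3 and Tle4 values was not tested. Endothelial markers summed to at most 6.51 CPM, and Cdh5 was called higher under TGFb. The part of these shifts in the values of Tle3, Tle2 and Lef1 was not tested.

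The genes whose levels followed each member most closely over the 27 libraries were named by Pearson's r on log2(CPM + 1), as a description, since libraries of a line share that line. Tle3 was followed by Ovol1, an epithelial transcription factor (r = 0.902), Rell2 (0.888) and Pglyrp3 (0.875), and after line means were subtracted Ovol1 kept r = 0.849. Tcf7l1 was followed by Id3, an inhibitor of helix-loop-helix factors (0.904), and Ppp1r26 (0.879), with 0.728 and 0.775 within lines. Lef1 was followed by Has3, a hyaluronan synthase (0.873), Pdss2 (0.829) and 9030612E09Rik (0.828), with 0.830 within lines for Has3. For Tle4 the closest were Pcgf6, a Polycomb subunit (0.916), Acan, the proteoglycan aggrecan (0.898), and St3gal6 (0.897), and within lines these were 0.182, -0.150 and -0.313.

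For Tle1 the closest genes were Flvcr1 (0.862), Akap8 (0.854) and Mettl3, the RNA methyltransferase (0.849). Tcf7 was followed less closely, by Pmm2 (0.750), Sergef (0.748) and Oard1 (0.741), and so were Tcf7l2, by Crtc3 (0.711), Ric1 (0.688) and Adgrl1 (0.686), and Tle2, by the row named Mir546 (0.731), Asah1 (0.724) and Ston1 (0.712). No member was among the 3 closest genes of another. The highest r between members was 0.627, between Lef1 and Tle4, and the lowest -0.370, between Tcf7l1 and Lef1.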

How the data were processed

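RNA was collected from all 27 cultures at the same time, and mRNA libraries were sequenced as single reads on a NovaSeq per the labels. The authors aligned reads to mm10 with STAR, kept unique hits, used QuasR to count those starting within RefSeq exons, and deposited CPM (counts scaled to a total of 1000000 per library). All 27 deposited CPM columns were used; depth, from the recovered reads, was 21.9 to 33.7 M reads per library. Each CPM value came out as a whole number of reads (100% of values within 0.01 read), so that edgeR could be run on recovered reads as an alternative. The floor of 3 reads covers counting error only, and each SE comes from a limma fit. Members and gene lists were chosen with earlier results of these data known. The members are 8 genes, all named with values. From the gene lists, genes called in a mean response plus Axin2 are named, and, for each member, the 3 genes with the highest Pearson's r; some genes that this rule names are not reported here.

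A gene entered the tests when 2 or more libraries had 1 CPM or more (13270 genes), on the log2(CPM + 1) scale, one that understates changes of low genes, with limma 3.58.1 in R 4.3.3 (12 group means, mean-variance trend, robust estimation, two-sided moderated test, Benjamini-Hochberg adjustment over all tested genes). A gene was called at an adjusted p of at most 0.05 and a 2-fold change. A mean response gives the 4 genotypes equal weight. A number marks the same cell line under all 3 conditions, and deviations of these libraries from their group means correlated at 0.509 to 0.940, so the line was used as a block in a further fit. Lines with the same number in fl and - genotypes correlated at 0.0871 to 0.472; - lines were made by Cre virus from cells of the fl genotypes, which came from 2 tumours each, but which fl line gave which - line is not stated, so fl and - lines may share a tumour. All p-values treat lines as separate. Without the block they measure the spread between lines of a group and also treat the libraries of a line as separate. With the line as a block they measure how the response varies between lines. The labels describe replicates as taken from different mice. Alternatives were another pseudocount, all genes without filtering, scaling by median of ratios, fits to only the groups compared, edgeR 4.0.16, line blocks, each line left out, and dHD2/- lines 2 and 3 averaged; this averaging combined with the block, the counts over 8 lines (sums and ratios included), and rescaled counts of lines for the Tle sum, Tle4 and Tle5 were chosen after seeing the data. Scripts were tested on simulated data. Exon lengths and coordinates are from GENCODE M21 (GRCm38, the build mm10 names), and promoter windows from RefSeq.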

Additional observations from a re-analysis of the deposited data

How the results depend on the processing

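No member was called in the main fit, and 0 of 8 were called in most alternatives. A looser rule, which the study states for mutant against wild-type lines, 1.5-fold at a p (taken here as unadjusted) no higher than 0.05, passed 1 member in the mean Wnt3a response and in the Wnt3a responses of dHD1/- and dHD2/- lines, 1 in the TGFb response of dHD2/fl lines, 1 in the untreated and 1 in the TGFb-treated dHD1/- against dHD1/fl comparison, 2 in the untreated and 1 in the TGFb-treated dHD2/- against dHD2/fl comparison, and 1 in the dHD2 difference in TGFb response. In this order, 2.29%, 0.173%, 0.791%, 7.75%, 3.77%, 6.99%, 7.36%, 6.25% and 1.29% of all tested genes passed it. The cell line as a block, fixed or random, called 1 member in the TGFb response of dHD2/fl lines (Tcf7), and edgeR with the block 1 in the mean TGFb response (Lef1). The block changed no other member's call. Leaving out 1 line at a time gave 0 to 1 member in the untreated and TGFb-treated dHD1 and the untreated and TGFb-treated dHD2 comparisons of - with fl lines: 1 without dHD1/- line 2 (untreated, Tle4), without dHD1/- line 1 (TGFb, Tle1) or 2 (TGFb, Tle4) and without dHD2/- line 1 (Lef1 untreated, Tcf7 under TGFb). Leaving out a dHD1/- line leaves 1 line in that group, assumed to vary like the other groups, and leaving out dHD2/- line 1 leaves the near-identical pair, so these calls say nothing of stability.

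Directions turned for 3 members in the mean TGFb response, none of them called. Tle1 was 0.0116 on the log2 scale with median-of-ratios scaling, with or without the replicate block, 0.0755 with edgeR and 0.0101 with edgeR and the block, and -0.345 to 0.0276 over fits without 1 line. Tcf7l1 was 0.0244 with edgeR and the block, and -0.409 to 0.0387 without 1 line. Tcf7l2 was -0.0292 to 0.225 without 1 line. The cause was not tested. With median-of-ratios scaling the lines with a higher level under TGFb were 6 of 9 for Tcf7l2 in place of 4, and 5 of 9 for Tcf7l1 in place of 4, and Tle2 was lower in 7 in place of 8; Tle1 was lower under Wnt3a in 7 lines in place of 8. Depth limits Lef1 and Tle4 in the lines where they had 3 reads or fewer.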
